A study of Mus musculus with 12 samples.

Results

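Glucocorticoid-responsive genes and the steroid receptors behind them were followed in mouse heart RNA after pressure overload, with and without dietary branched-chain amino acids (BCAA: leucine, isoleucine and valine). The set holds 9 of the 18604 genes listed in any of the deposited tables, picked by gene name. It comprises 6 genes known to be induced by glucocorticoids (Fkbp5, Tsc22d3, Zbtb16, Sgk1, Klf9 and Errfi1), the glucocorticoid receptor gene Nr3c1, the mineralocorticoid receptor gene Nr3c2, and Hsd11b1, which codes for an enzyme that makes active glucocorticoid. Each was listed once in every one of the 4 tables, and all 9 passed the filter on low values in every comparison. The 12 libraries came from hearts of male C57Bl/6J mice aged 12 weeks and formed 4 groups of 3: BCAA-free TAC, BCAA-free sham, control diet TAC and control diet sham. TAC is transverse aortic constriction, a surgical narrowing of the aorta that raises the load on the left ventricle, and sham mice had surgery without it. The BCAA-free diet lacked these amino acids altogether, whereas the control diet held them at about the level of standard chow. Either diet began 4 days before surgery and went on until the heart was taken 1 week after it. The labels name the tissue as heart, with no chamber, and leave unsaid whether each replicate was its own animal. The p-values therefore describe variation among these libraries, some of which may be technical.

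Glucocorticoids, chiefly corticosterone in mice, bind a receptor held in the cytoplasm by a complex of heat shock proteins. The bound receptor enters the nucleus and raises or lowers target genes, often at response elements in which the motifs AGAACA and TGTTCT stand 3 bases apart. Fkbp5 is both a target and a co-chaperone that lowers the receptor's affinity for hormone, which closes a feedback loop. The mineralocorticoid receptor binds aldosterone and glucocorticoids alike, and in heart muscle cells it is thought to be occupied largely by glucocorticoids. Both receptors are known for effects on cardiac growth and fibrosis. Hormone levels were not analysed here.

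Promoter sequences, here the 250 bases before an annotated RefSeq start (GRCm38.p6), were found for 7 members with 15 starts between them. Those printed are the Sgk1 window with the most receptor motifs, the 1 Tsc22d3 window that holds a motif, and that of Fkbp5, the member with the largest called change, for comparison. Capitals mark the receptor motif, AGAACA or TGTTCT, searched on both strands. The windows are chr10:21993640-21993889 (plus strand) for Sgk1, chrX:140600523-140600772 (minus strand) for Tsc22d3 and chr17:28486150-28486399 (minus strand) for Fkbp5.
Sgk1: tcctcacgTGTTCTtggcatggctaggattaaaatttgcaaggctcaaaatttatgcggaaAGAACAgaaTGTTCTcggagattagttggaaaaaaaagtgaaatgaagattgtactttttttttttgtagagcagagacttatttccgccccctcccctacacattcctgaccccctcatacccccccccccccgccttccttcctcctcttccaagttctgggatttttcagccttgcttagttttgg
Tsc22d3: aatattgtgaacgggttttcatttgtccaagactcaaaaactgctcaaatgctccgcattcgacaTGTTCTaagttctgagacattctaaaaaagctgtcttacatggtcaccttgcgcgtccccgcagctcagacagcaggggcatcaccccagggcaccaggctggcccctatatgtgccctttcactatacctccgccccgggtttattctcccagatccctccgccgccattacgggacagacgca
Fkbp5: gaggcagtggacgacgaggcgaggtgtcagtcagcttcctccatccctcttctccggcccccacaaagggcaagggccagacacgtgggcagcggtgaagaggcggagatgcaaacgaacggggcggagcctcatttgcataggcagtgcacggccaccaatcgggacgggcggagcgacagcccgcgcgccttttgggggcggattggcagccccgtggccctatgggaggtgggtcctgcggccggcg
This Sgk1 window held a complete element, beginning 189 bases before the start, and a further motif 242 bases before it. Only 3 of all 32851 promoters searched (0.00913%) held a complete element, and 1.56% held one with at most 2 mismatches over its 12 fixed bases. The Tsc22d3 window held 1 motif, 185 bases before the start, whereas 16.1% of all promoters held at least 1. In all, 4 of the 15 windows held the motif, 3 of Sgk1 and 1 of Tsc22d3, and the other 2 Sgk1 windows, each with 1 motif, are not shown. The Fkbp5 window held none, which says only that these letters are not in this window. A match is a description of sequence and not evidence of binding.

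Libraries held 74206246 to 110452636 reads. All 10 cardiomyocyte markers were measured, and their summed level ran from 4777484 to 7425598 normalized reads (reads divided by size factors set jointly over the 12 libraries). Control diet TAC hearts stood apart in summed cardiomyocyte, fibroblast and macrophage markers. Their endothelial sums (103448 to 129297) overlapped those of control diet sham hearts (110294 to 126640). With TAC on the control diet, 0 of 10 cardiomyocyte markers were called higher and 1 lower. For fibroblast markers it was 7 and 1 of 10, and for macrophage markers 6 and 0 of 9, against 9.17% and 5.64% of all genes. With the BCAA-free diet in TAC hearts, 5 of 10 cardiomyocyte markers were called higher and 0 lower. In that comparison 2 fibroblast markers were higher and 5 lower of 10, and 0 macrophage markers higher and 8 lower of 9. Of all genes, 6.23% were higher and 10.5% lower there. Cardiomyocyte markers summed to 6954815 to 7425598 in BCAA-free TAC, 6528952 to 7152217 in BCAA-free sham, 4777484 to 5559334 in control diet TAC and 6061615 to 6601595 in control diet sham hearts, and fibroblast markers (10 of 10 measured) to 162751 to 177502, 148193 to 154931, 208636 to 256632 and 154602 to 180060 in the same order. Macrophage markers (9 of 9 measured) summed to 27527 to 34959, 24069 to 27050, 45726 to 47944 and 24439 to 32410. Mitochondrial genes took 21.9 to 22.5% of reads in BCAA-free TAC, 22.6 to 23.6% in BCAA-free sham, 17.9 to 19.9% in control diet TAC and 22.4 to 27.1% in control diet sham hearts, so control diet TAC hearts were lowest here too, without overlap. In such bulk RNA, fewer cells of a type and less RNA per cell cannot be told apart, and the part of these markers and of the mitochondrial share in the results below was not tested. The structured RNAs Rn7sk, Rmrp and Rpph1 summed to 63.6, 7.79 and 76.1 CPM in BCAA-free TAC, 3.02 to 3.89 in BCAA-free sham, 4.23, 3.83 and 19.3 in control diet TAC and 2.99, 115.5 and 2.06 in control diet sham hearts. Control diet sham 2 and BCAA-free TAC 1 and 3 were thus the highest.

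Per kilobase of merged exons, averaged over the 12 libraries, Klf9 was the most abundant member at 2813 normalized reads, followed by Sgk1 at 2231, Tsc22d3 at 1805, Zbtb16 at 1516 and Errfi1 at 1392. Nr3c1 stood at 998 and thus above Nr3c2 at 290, while Fkbp5 was at 351 and Hsd11b1 at 283. The ranges over libraries of Klf9 (2092 to 3653) and Sgk1 (1796 to 2742) overlapped, as did those of Nr3c2 (233 to 357) and Hsd11b1 (152 to 387). Nr3c1 (891 to 1151) and Nr3c2 did not overlap. The members differed in how far they varied: the highest library was 4.82 times the lowest for Zbtb16 and 3.30 times for Fkbp5, but 1.29 times for Nr3c1.

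**Figure D1:**
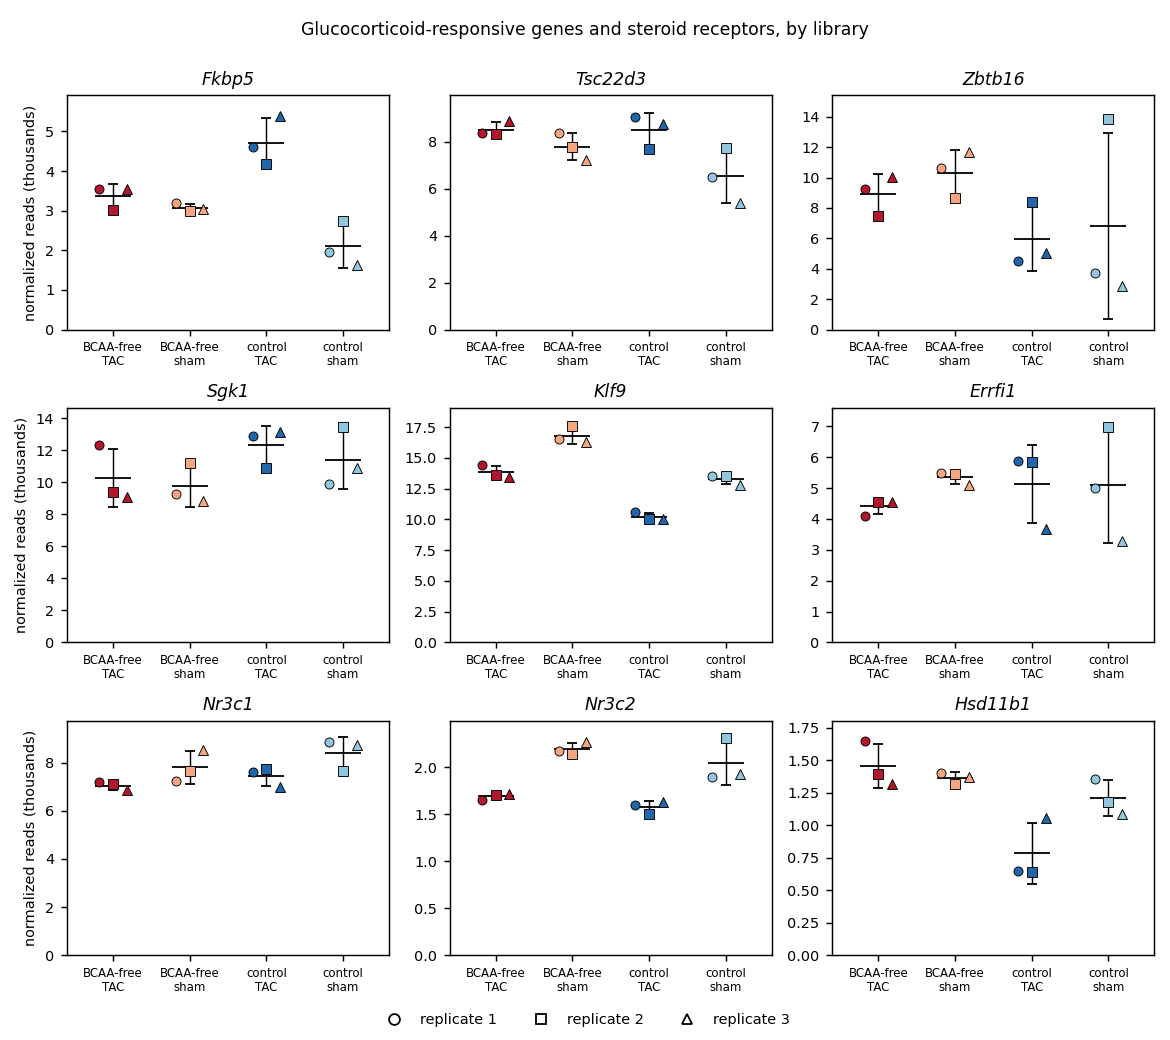
Normalized reads (linear axis from 0) of each of the 9 members in the 12 libraries, by group, with the replicate number as symbol; horizontal bars give the mean and vertical bars the SD of 3 libraries. Fkbp5 in control diet TAC (4167 to 5384) lies above every other library, Hsd11b1 in control diet TAC (644 to 1058) lies below every other library, and Zbtb16 spreads widest in control diet sham (2877 to 13876).

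Fkbp5 (ENSMUSG00000024222; GRCm38 chromosome 17, 28399094 to 28517527, minus strand, protein coding), the co-chaperone and feedback gene, rose with TAC on the control diet. It had 3548, 3025 and 3536 normalized reads in BCAA-free TAC hearts and 3191, 2992 and 3052 in BCAA-free sham hearts. On the control diet it had 4596, 4167 and 5384 in TAC hearts and 1963, 2741 and 1634 in sham hearts. The 2 control diet groups were thus the highest and the lowest, without overlap, and both BCAA-free groups lay between them and overlapped each other. The log2 change with TAC was 1.17 ± 0.181 on the control diet (SE, adjusted p = 0.00413, a fold of 2.26) and 0.12 ± 0.0693 on the BCAA-free diet (adjusted p = 0.323). The change on the BCAA-free diet minus that on the control diet was -1.05 ± 0.211 (adjusted p = 0.0402), so the response differed between the diets by this test. That call held without control diet sham 2 or control diet TAC 3, and leaving out any 1 of the other 10 libraries gave an adjusted p of 0.0514 to 0.135. In TAC hearts the BCAA-free diet went with a lower level, by a log2 change of -0.48 ± 0.121 (adjusted p = 0.0263). This call was lost without control diet TAC 1 (adjusted p = 0.0730) or without BCAA-free TAC 1 (0.0618), 2 (0.137) or 3 (0.0729). In sham hearts the change with the BCAA-free diet was 0.57 ± 0.179 and did not pass (adjusted p = 0.143), although every BCAA-free sham library lay above every control diet sham library. Without control diet sham 2, the highest library of its group, it was 0.78 (adjusted p = 0.00111). Leaving out the highest control diet library raises this change by itself. The authors' deposited table gives diet in sham hearts a log2 fold change of 0.54 with an adjusted p of 0.00556.

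Tsc22d3 (ENSMUSG00000031431; chromosome X, 140539528 to 140600659, minus strand, protein coding) codes for a leucine zipper protein known for anti-inflammatory actions of glucocorticoids. Its levels were 8372, 8310 and 8880 normalized reads in BCAA-free TAC, 7209 to 8364 in BCAA-free sham, 9058, 7671 and 8748 in control diet TAC, and 6495, 7723 and 5401 in control diet sham hearts. TAC and sham libraries overlapped on both diets. TAC went with a log2 change of 0.38 ± 0.138 on the control diet (SE, adjusted p = 0.1004) and 0.13 ± 0.0623 on the BCAA-free diet (adjusted p = 0.249). The BCAA-free diet went with a change of 0.26 ± 0.124 in sham hearts (adjusted p = 0.293) and 0.01 ± 0.101 in TAC hearts (adjusted p = 0.945). Without control diet sham 2 the change with diet in sham hearts was 0.39 (adjusted p = 0.0342). That library was the highest of its group here (7723), so leaving it out raises the change by itself.

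Zbtb16 (ENSMUSG00000066687; chromosome 9, 48654297 to 48836222, minus strand, protein coding), a zinc finger transcription factor, passed the test in no comparison and spread most over the 12 libraries. It had 9246, 7484 and 10048 normalized reads in BCAA-free TAC hearts, 10604, 8648 and 11664 in BCAA-free sham hearts, and 4508, 8416 and 5035 in control diet TAC hearts. Control diet sham hearts had 3693, 13876 and 2877, so that the highest and the lowest library of all 12 were in the same group. The SD of log2 values there was 1.22, above that of 99.7% of the 14282 genes compared. Between diets the log2 change, BCAA-free over control, was 0.95 ± 0.699 in sham hearts (SE, adjusted p = 0.540) and 0.63 ± 0.212 in TAC hearts (adjusted p = 0.0722). Without control diet sham 2 the change in sham hearts was 1.65 (adjusted p = 0.00325), and without control diet TAC 2 that in TAC hearts was 0.90 (adjusted p = 0.00493). Each of these libraries was the highest of its group, so leaving it out raises the change by itself. Over all settings run, the adjusted p went from 0.00325 to 0.799 in sham hearts and from 0.00493 to 0.417 in TAC hearts. The authors' deposited table gives diet in TAC hearts a log2 fold change of 0.58 and an adjusted p of 0.0375. For diet in sham hearts it gives 0.59 and an adjusted p of 0.707.

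Clock genes differed between the same control diet sham libraries. Per2, a repressor of the circadian clock, had 566, 2844 and 1064 normalized reads in control diet sham 1, 2 and 3, and Dbp, a clock output factor, had 2257, 10265 and 5217. Arntl, an activator of the clock, had 2165, 311 and 1191. Control diet sham 2 was thus the highest of the 3 for Per2 and Dbp and the lowest for Arntl, as it was the highest for Zbtb16. It was the highest of its group for each of the 6 hormone-induced members, for Klf9 only narrowly (13550, against 13522 and 12820). Their sum was 58306 there, against 40572 and 36894. It was also the highest of its group in the stress-induced genes Dusp1 (18163, against 6442 and 5316) and Hspa1a (2422, against 329 and 820.5). Dusp1 is also known to respond to glucocorticoids. Per2, Dbp, Arntl, Dusp1 and Hspa1a were chosen after their values were seen. Between control diet sham 1 and 3, Zbtb16 was higher in 1 (3693, against 2877), whereas Per2 and Dbp were higher in 3. The 3 genes most like Zbtb16 over the 12 libraries (Mxd1, Rhobtb1 and Pgm2l1) were not on the clock list. Control diet sham 2 also had the most structured RNA of its group (115.5 CPM, against 2.99 and 2.06). Of 19 clock genes, 7 were higher and 1 lower with the BCAA-free diet in TAC hearts, against 6.23% and 10.5% of all genes. The 1 lower is thus below the share over all genes. Among the higher ones were Hlf, by 1.01 ± 0.145, and Per2, by 0.62 ± 0.137 (SE, adjusted p = 0.00208 and 0.0144). With diet in sham hearts 0 of 19 were higher and 1 lower, against 1.27% and 2.27% of all genes. With TAC, 2 rose and 3 fell on the BCAA-free diet, against 3.31% and 4.41%. On the control diet 0 rose and 3 fell, against 9.17% and 5.64%. For the difference of TAC responses 1 was higher and 0 lower, against 0.171% and 0.503%. The part of the clock genes in the Zbtb16 values was not tested.

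**Figure D2:**
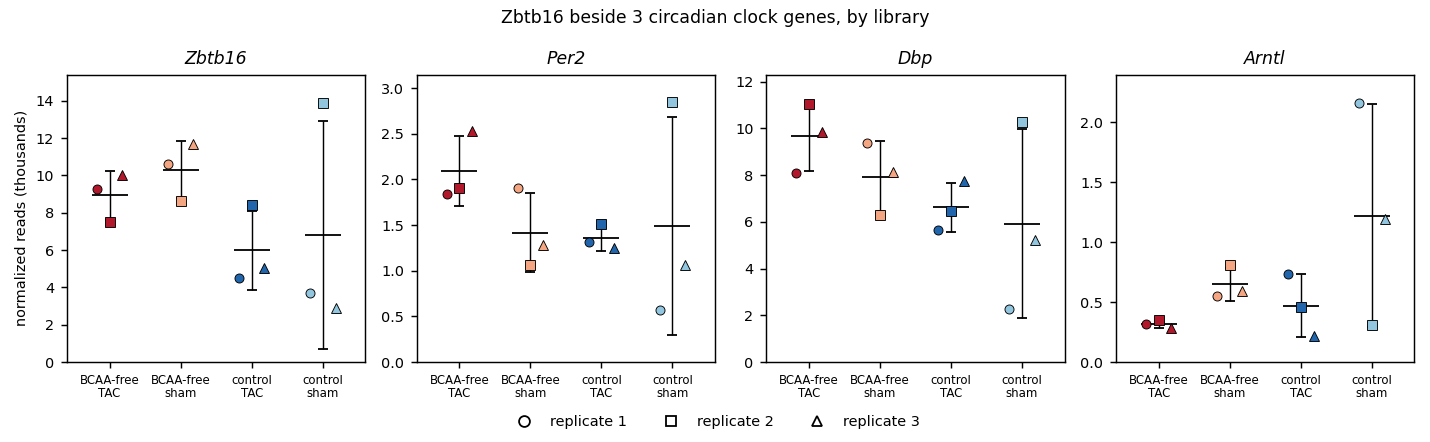
Normalized reads (linear axes from 0) of Zbtb16 and of the clock genes Per2, Dbp and Arntl in each library, by group, with the mean and SD of 3 libraries as bars. Control diet sham 2 (square) is the highest of its group for Zbtb16 (13876), Per2 (2844) and Dbp (10265) and the lowest for Arntl (311).

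Sgk1 (ENSMUSG00000019970; chromosome 10, 21882184 to 21999903, plus strand, protein coding), a kinase induced through both receptors that keeps sodium channels at the cell surface, did not pass in any comparison. Levels were 12323, 9367 and 9092 normalized reads in BCAA-free TAC, 8805 to 11230 in BCAA-free sham, 10919 to 13150 in control diet TAC and 9898, 13446 and 10883 in control diet sham hearts. All 4 groups overlapped. The log2 changes with TAC were 0.06 ± 0.140 on the BCAA-free diet and 0.11 ± 0.135 on the control diet (SE, adjusted p = 0.852 and 0.637). Those with the BCAA-free diet were -0.27 ± 0.138 in TAC and -0.22 ± 0.132 in sham hearts (adjusted p = 0.219 and 0.406).

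Klf9 (ENSMUSG00000033863; chromosome 19, 23141226 to 23168134, plus strand, protein coding), a zinc finger transcription factor of the Krüppel-like family, fell with TAC on both diets and was higher with the BCAA-free diet in both sham and TAC hearts. It had 14397, 13643 and 13429 normalized reads in BCAA-free TAC and 16529, 17588 and 16314 in BCAA-free sham hearts. Control diet TAC hearts had 10578, 10072 and 10071, and control diet sham hearts had 13522, 13550 and 12820. No library overlapped in any of these 4 comparisons, and the SD within groups was at most 682 reads. The log2 change with TAC was -0.29 ± 0.0541 on the BCAA-free diet (SE, adjusted p = 0.00833) and -0.39 ± 0.0909 on the control diet (adjusted p = 0.0224). The difference of these responses was 0.10 ± 0.0950 (adjusted p = 0.696). The log2 change with the BCAA-free diet was 0.44 ± 0.0917 in TAC hearts (adjusted p = 0.0115) and 0.34 ± 0.0551 in sham hearts (adjusted p = 0.0136). The fall on the BCAA-free diet passed whichever of the 6 libraries was left out. On the control diet it passed only without control diet TAC 3, and leaving out any of the other 5 gave an adjusted p of 0.0611 to 0.1002. The diet call in TAC hearts was lost without BCAA-free TAC 1 (0.0555) or 2 (0.0653), and that in sham hearts without BCAA-free sham 1 (0.0760), 2 (0.0584) or 3 (0.0569).

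Errfi1 (ENSMUSG00000028967; chromosome 4, 150853919 to 150868892, plus strand, protein coding), a feedback inhibitor of the epidermal growth factor receptor, fell with TAC on the BCAA-free diet. It had 4105, 4553 and 4551 normalized reads in BCAA-free TAC hearts, all below the 5493, 5452 and 5089 of BCAA-free sham hearts. The control diet groups were uneven, with 5861, 5836 and 3661 in TAC hearts and 5003, 6970 and 3278 in sham hearts, so that the TAC values lay within the range of the sham values. Its log2 change with TAC was -0.29 ± 0.0613 on the BCAA-free diet (SE, adjusted p = 0.0162) and 0.04 ± 0.265 on the control diet (adjusted p = 0.945). The difference of the responses was -0.32 ± 0.325 (adjusted p = 0.711), so a difference between the diets was not shown. The call on the BCAA-free diet was lost without BCAA-free sham 1 (0.0688) or 2 (0.0630). With all 12 libraries sharing 1 spread, it was lost as well (adjusted p = 0.625). Without control diet TAC 3 the change with the BCAA-free diet in TAC hearts was -0.40 (adjusted p = 0.00172), against -0.18 ± 0.167 with it (adjusted p = 0.499).

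Nr3c1 (ENSMUSG00000024431; chromosome 18, 39410545 to 39519421, minus strand, protein coding), which codes for the glucocorticoid receptor, varied least of the members over the 12 libraries. Its libraries stood at 7184, 7107 and 6847 normalized reads in BCAA-free TAC, 7216, 7654 and 8533 in BCAA-free sham, 7609, 7719 and 6972 in control diet TAC and 8842, 7640 and 8718 in control diet sham hearts. TAC libraries lay just below sham libraries on the BCAA-free diet and overlapped with them on the control diet. No comparison passed: the log2 change with TAC was -0.15 ± 0.0646 on the BCAA-free diet and -0.18 ± 0.101 on the control diet (SE, adjusted p = 0.187 and 0.266). For diet, BCAA-free over control, it was -0.07 ± 0.0902 in TAC and -0.11 ± 0.0776 in sham hearts (adjusted p = 0.632 and 0.476).

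Nr3c2 (ENSMUSG00000031618; chromosome 8, 76899442 to 77245012, plus strand, protein coding), which codes for the mineralocorticoid receptor, fell with TAC on both diets. It had 1647, 1710 and 1719 normalized reads in BCAA-free TAC and 2174, 2141 and 2265 in BCAA-free sham hearts. On the control diet, TAC hearts had 1596, 1505 and 1633, and sham hearts had 1894, 2310 and 1930. Every TAC library thus lay below every sham library on either diet. The log2 change was -0.38 ± 0.0618 on the BCAA-free diet (SE, adjusted p = 0.00356) and -0.38 ± 0.108 on the control diet (adjusted p = 0.0461). The test of their difference gave -0.0023 ± 0.117 (adjusted p = 0.996). The BCAA-free call held in all 6 fits with 1 library left out. On the control diet it passed only without control diet TAC 3, and otherwise gave an adjusted p of 0.0803 to 0.178. For the BCAA-free diet the change was 0.11 ± 0.0920 in TAC and 0.10 ± 0.0821 in sham hearts (adjusted p = 0.471 and 0.529). Exons of Nr3c2 share 247 bases with Gm10649, a noncoding gene on the other strand that averaged 17.7 normalized reads.

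Hsd11b1 (ENSMUSG00000016194; chromosome 1, 193221634 to 193264075, minus strand, protein coding) codes for the reductase that regenerates corticosterone from its inactive keto form inside cells. It was higher in TAC hearts on the BCAA-free diet than in TAC hearts on the control diet. BCAA-free TAC hearts had 1646, 1399 and 1322 normalized reads and BCAA-free sham hearts 1405, 1321 and 1373, whereas control diet TAC hearts had 652, 644 and 1058 and control diet sham hearts 1357, 1184 and 1086. Control diet TAC 1 and 2 were the lowest of all, and TAC 3 of that group lay just under the lowest sham library. The log2 change with the BCAA-free diet was 0.93 ± 0.191 in TAC hearts (SE, adjusted p = 0.0106, a fold of 1.90) and 0.18 ± 0.0873 in sham hearts (adjusted p = 0.288). Without BCAA-free TAC 1 the TAC value was 0.84 (adjusted p = 0.0529). With TAC, the change was 0.08 ± 0.0845 on the BCAA-free diet (adjusted p = 0.628) and -0.67 ± 0.197 on the control diet (adjusted p = 0.0520), the second of which has an adjusted p of 0.0186 in the authors' deposited table. The difference of the responses was 0.75 ± 0.231 and did not pass (adjusted p = 0.143). Without control diet TAC 3 it was 0.99 (adjusted p = 0.00168), and the change with TAC on the control diet was -0.91 (adjusted p = 0.000741).

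Counted over the set, the 5 comparisons called between 1 and 3 of 9 members, and the 6 hormone-induced genes did not move as one. With TAC on the BCAA-free diet 0 members were higher and 3 lower (Klf9, Errfi1 and Nr3c2), where 3.31% and 4.41% of the 17611 genes tested were higher and lower. With TAC on the control diet 1 was higher (Fkbp5) and 2 lower (Klf9 and Nr3c2), against 9.17% and 5.64% of 18305 genes. Under the BCAA-free diet, 2 were higher (Hsd11b1 and Klf9) and 1 lower (Fkbp5) in TAC hearts, against 6.23% and 10.5% of 18039 genes. In sham hearts 1 was higher (Klf9) and 0 lower, against 1.27% and 2.27% of 17862 genes. Without control diet sham 2, 4 members were called there, where 351 of 17759 genes were higher and 720 lower. That library was the highest of its group for each of the 6 hormone-induced genes. Leaving it out thus raises their changes with diet by itself. For the difference of TAC responses 0 were higher and 1 lower (Fkbp5), against 0.171% and 0.503% of 17493 genes. The members' median log2 change was -0.15 with TAC on the BCAA-free diet, 0.04 with TAC on the control diet, 0.01 with diet in TAC hearts, 0.18 with diet in sham hearts and -0.05 for the difference, beside 0.0060, -0.02, 0.02, 0.0019 and 0.02 over all genes tested. In the same order, 4, 5, 4, 2 and 2 members had an unadjusted p below 0.05. The comparisons share groups and are not independent of each other.

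**Figure D3:**
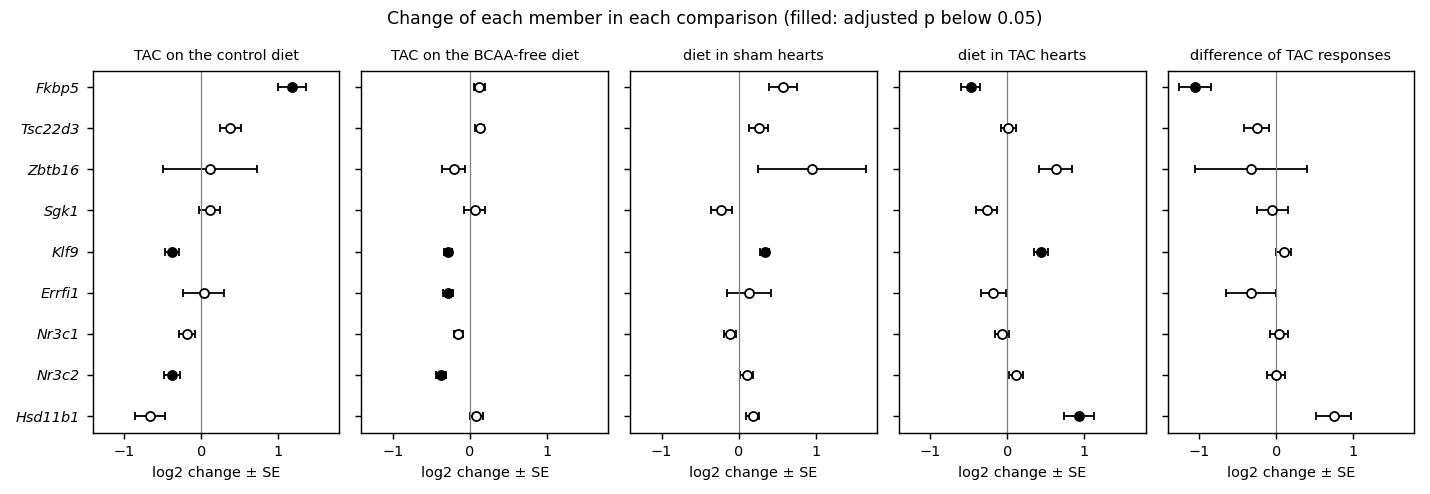
Log2 change ± SE of each of the 9 members in the 5 comparisons (horizontal axis, linear), with filled points where the limma adjusted p was below 0.05. Fkbp5 has the largest called changes, 1.17 with TAC on the control diet and -1.05 for the difference of TAC responses, while Klf9 is called in all 4 pairwise comparisons and Nr3c1, Tsc22d3, Sgk1 and Zbtb16 in none.

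Other genes known to respond to glucocorticoids were taken as a list of 35. With TAC on the control diet, 7 of 35 rose and 2 fell, where 9.17% and 5.64% of all genes tested were higher and lower, with a median of 0.10 beside -0.02 over all genes. The 2 that fell are thus about the share over all genes. The 3 rises with the smallest adjusted p were those of the metallothionein gene Mt2 (6970 ± 1630 normalized reads in TAC and 1835 ± 382 in sham hearts, mean ± SD, n = 3, a log2 change of 1.91 ± 0.194), Anxa1, an anti-inflammatory phospholipid-binding protein (1.14 ± 0.118), and the crosslinking enzyme Tgm2 (0.68 ± 0.130). The 7 rises ran from 0.68 to 1.91 on the log2 scale, with Tgm2 the smallest of them. Cdkn1c, a cell cycle inhibitor, fell to 833 ± 80.3 in TAC hearts, against 1896 ± 191 in sham hearts (log2 change -1.19 ± 0.121). All 4 had an adjusted p of at most 0.00998. On the BCAA-free diet, 3 of 34 rose with TAC and 6 fell, against 3.31% and 4.41% of all genes, with a median of -0.18. Mt1 rose by 0.41 ± 0.0595, while Rgs2, a brake on G protein signalling, changed by -0.71 ± 0.112, the ubiquitin ligase Fbxo32 by -0.51 ± 0.0831 and the transcription factor Klf15 by -0.41 ± 0.0762 (adjusted p = 0.00193, 0.00722, 0.00502 and 0.00788). The difference of TAC responses was called for Cdkn1c (0.96 ± 0.152), Anxa1 (-0.78 ± 0.159) and Mt2 (-1.38 ± 0.282). Without control diet sham 2, 0 genes of the list passed this test, and 1 was higher and 3 lower without control diet TAC 3. Over all genes, 23 of 17487 passed in the first of these fits and 1755 of 17491 in the second.

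With the BCAA-free diet, the same list had 8 of 35 genes higher and 3 lower in TAC hearts (median -0.08, against 6.23% and 10.5% of all genes), and 4 of 34 higher and 0 lower in sham hearts (median 0.33, against 1.27% and 2.27%). Ptgds, a prostaglandin D synthase, was higher by 1.32 ± 0.199 in TAC hearts (71542 ± 8843 normalized reads on the BCAA-free diet and 29323 ± 7866 on the control diet) and by 1.20 ± 0.177 in sham hearts (53800 ± 13075 and 23049 ± 2510 in the same order). Klf15 was at 5656 ± 657 in BCAA-free TAC hearts, against 3123 ± 324 in TAC hearts on the control diet, a log2 change of 0.86 ± 0.120 (adjusted p = 0.00182). Cdkn1c was higher by 1.01 ± 0.110 and Anxa1 changed by -0.87 ± 0.120 in TAC hearts. In sham hearts the transferase gene Galnt15 (0.46 ± 0.0596), the glutamine synthetase gene Glul (0.46 ± 0.0710) and Hif3a (1.15 ± 0.257), a regulator of the hypoxia response, were also higher. Without control diet sham 2, 11 of 34 were higher and 0 lower in sham hearts, where 351 and 720 of 17759 genes were. That library had the highest sum of the list in its group (303789, against 275931 and 286643). The count was added after seeing the data and is no separate support for a change with diet. Without control diet TAC 3, 11 of 34 were higher and 4 lower in TAC hearts, where 2906 and 3119 of 17992 genes were. The 4 lower are thus below the share over all genes in that fit. Members of one list were thus called in both directions in 4 of the 5 comparisons. The lower calls with diet in TAC hearts and with TAC on the control diet were no more than about the share over all genes.

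**Figure D4:**
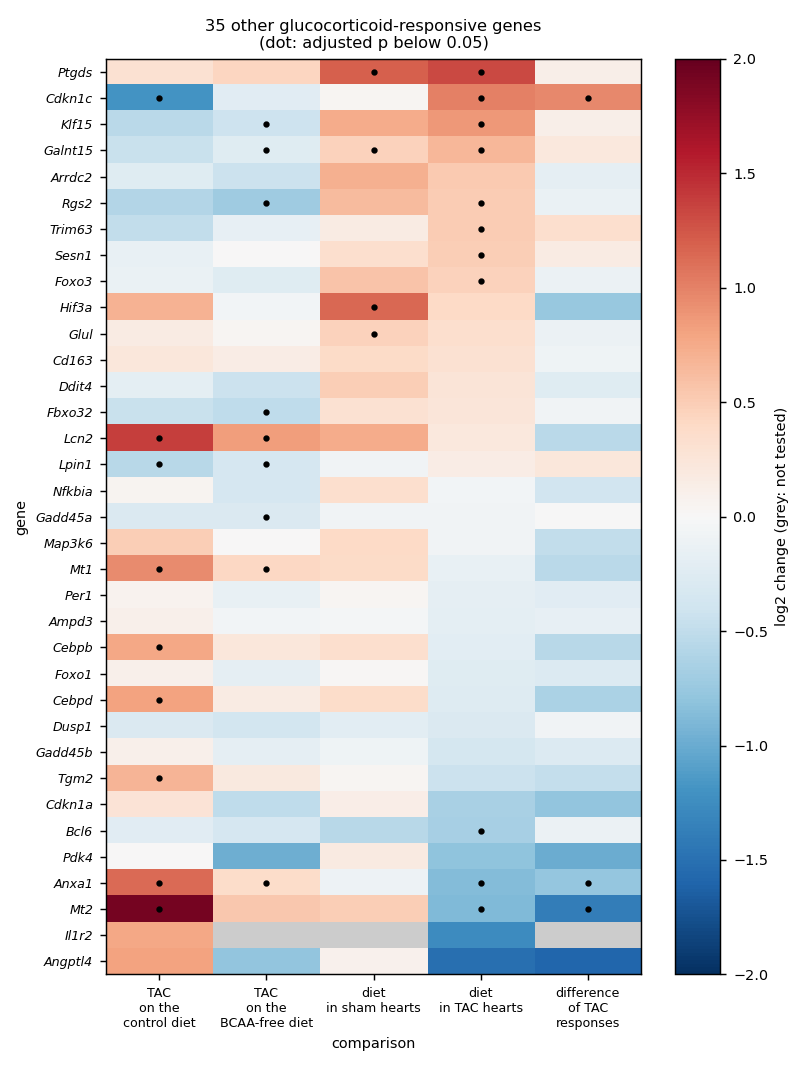
Log2 change of the 35 other glucocorticoid-responsive genes (rows) in the 5 comparisons (columns), as colour, with a dot where the limma adjusted p was below 0.05 and grey where the gene was not tested. Mt2 (1.91) and Cdkn1c (-1.19) mark the ends of the called range with TAC on the control diet, and Ptgds is called in both diet columns (1.32 and 1.20).

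Of 19 chaperone and coregulator genes that act on the receptors, 1 rose and 2 fell with TAC on the BCAA-free diet, and 0 rose and 3 fell on the control diet. Over all genes, 3.31% rose and 4.41% fell on the BCAA-free diet, and 9.17% and 5.64% on the control diet. Fkbp4, the co-chaperone that favours receptor transport to the nucleus and so acts opposite to Fkbp5, was at 28885, 30745 and 28080 normalized reads in BCAA-free TAC, 30859 to 33008 in BCAA-free sham, 19995, 19288 and 28076 in control diet TAC and 34784 to 36416 in control diet sham hearts. It fell with TAC on the control diet by a log2 change of -0.69 ± 0.152 (adjusted p = 0.0172). Control diet TAC 3 lay apart from the other 2 libraries of its group here, as it did for Hsd11b1 and Errfi1. The coactivator Ncoa2 fell with TAC on both diets (-0.36 ± 0.0552 on the BCAA-free and -0.38 ± 0.0907 on the control diet, adjusted p = 0.00252 and 0.0234), and was higher with the BCAA-free diet in sham hearts (0.21 ± 0.0509, adjusted p = 0.0487). With diet in sham hearts 1 was thus higher and 0 lower, against 1.27% and 2.27% of all genes. With diet in TAC hearts 0 were higher and 2 lower, the heat shock genes Dnajb1 (-0.55 ± 0.143) and Hsp90aa1 (-0.47 ± 0.127). The 2 lower are about the share over all genes, of which 6.23% were higher and 10.5% lower. Without control diet sham 2, 0 genes of the list were higher and 1 lower with diet in sham hearts, so the Ncoa2 call there was lost, and 0 passed for TAC on the control diet. Over all genes, 351 were higher and 720 lower of 17759 with diet, and 1384 of 18219 passed with TAC. Without control diet TAC 3, 2 were higher and 3 lower with diet in TAC hearts. There 2906 of 17992 genes were higher and 3119 lower, shares that the list did not exceed.

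Of 16 gene symbols linked to mineralocorticoid action, with 1 gene listed under both its names, 13 were tested with TAC. On the BCAA-free diet 2 rose and 0 fell, and on the control diet 6 rose and 0 fell. The shares of all genes that rose and fell were 3.31% and 4.41% on the BCAA-free and 9.17% and 5.64% on the control diet. The matrix gene Postn rose by 1.66 ± 0.298 on the BCAA-free and 3.52 ± 0.242 on the control diet (adjusted p = 0.0489 and 0.000144). With the BCAA-free diet 0 were higher and 4 lower in TAC hearts, among them Postn (-2.74 ± 0.290, adjusted p = 0.000686), and 0 of 12 higher and 2 lower in sham hearts. Of all genes, 6.23% were higher and 10.5% lower in TAC hearts, and 1.27% and 2.27% in sham hearts. Without control diet TAC 3 the counts were 4 higher and 2 lower with TAC on the control diet, and 2 higher and 3 lower with diet in TAC hearts. Over all genes they were 2478 and 2200 of 18247, and 2906 and 3119 of 17992. Without control diet sham 2, 1 was higher and 1 lower with diet in sham hearts, where 351 and 720 of 17759 genes were. The list's Col1a1 is also a fibroblast marker. Another gene of the list is also among the 35 other responsive genes. Its rise with TAC on either diet is counted in both lists. With TAC on the control diet, 7 of 10 fibroblast markers rose and 1 fell, beside the fall of Nr3c2 there. Of all genes, 9.17% rose and 5.64% fell in that comparison. Without control diet sham 2, 4 of the fibroblast markers rose and 0 fell, where 962 and 422 of 18219 genes did.

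The genes most like each member across the 12 libraries were found by Pearson's r of log2 values among 12720 genes, as a description, since all values share their libraries and groups. For Fkbp5 they were Pdap1 (0.948), Cebpd (0.946) and Cebpb (0.946), the last 2 being on the list of other responsive genes. Cebpd had 2698 ± 85.5 normalized reads in BCAA-free TAC, 2413 ± 196 in BCAA-free sham, 3258 ± 245 in control diet TAC and 1892 ± 409 in control diet sham hearts, the same order of groups as Fkbp5. Klf9 was most like Kiz (0.974), Zfp654 (0.972) and Capn7 (0.970), and Hsd11b1 most like Fkbp3 (0.979), Btbd1 (0.979) and Apoo (0.974). For the receptors the leading genes were Chd7 (0.934, Nr3c1) and Ak4 (0.942, Nr3c2). Lower values led for Tsc22d3 (Paf1, 0.901), Errfi1 (Osr1, 0.881), Zbtb16 (Mxd1, 0.878) and Sgk1 (Rbm12, 0.876).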

How the data were processed

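RNA selected for poly(A) was measured in 12 heart libraries, and groups and replicate numbers come from the labels. Tools listed in the submitters' processing notes are DESeq2, Subread 1.5.2, STAR 2.5.2b and Trimmomatic 0.36, with mm10 and GRCm38 as builds. What each was used for, and the strand setting, is not given in the sources used here, so reads of overlapping or antisense genes cannot be told apart. Per the file headers, the 4 tables deposited by the authors hold normalized read counts, the signal of each library, beside p-values and a log2 fold change. Deposited signal values gave whole reads for 100% of values within 0.0001 read, and library totals are sums of these reads. Counting error and library spread were not separated.

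A count test had been foreseen had counts been raw. For normalized counts, limma-trend (limma 3.58.1, R 4.3.3) with robust empirical Bayes was fitted to log2(value + 1) of all genes with a mean of at least 10, each table alone. The difference of TAC responses used all 12 libraries. A gene was called at a limma adjusted p (Benjamini-Hochberg over all genes tested) below 0.05. Printed levels rest on 1 joint set of size factors for the 12 libraries, so their ratios can differ from the log2 changes. Alternatives were edgeR 4.0.16 and DESeq2 1.42.0 on the recovered reads, other scalings, pseudocounts and filters, a replicate block and leaving out each library. The fit was tested on data with known changes. Members, lists and the naming rule (all members, at most 4 called genes with the smallest adjusted p per list and comparison, and the 3 genes most like each member with a mean of at least 50) were chosen with earlier results of these data known. One gene of a list is not reported here by name. Positions follow GENCODE mouse release 21, and promoter sequences RefSeq on GRCm38.p6.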

Additional observations from a re-analysis of the deposited data

Results flagged for a closer look

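The response of Fkbp5 to TAC differed between the diets by the test of the difference itself. The change on the BCAA-free diet minus that on the control diet was -1.05 ± 0.211 on the log2 scale (SE, limma adjusted p = 0.0402). Every TAC library was above every sham library on the control diet, and the libraries overlapped on the BCAA-free diet. The adjusted p ran from 0.02004 to 0.135 when 1 of the 12 libraries was left out. The call was kept in only 2 of these 12 fits, and it was lost with the replicate block.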

How the results depend on the processing

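The number of members called changed with the processing. For TAC on the control diet it was 3, but 1 with the replicate block, 5 with all 12 libraries in 1 fit and 1 to 4 when a library was left out. It was 1 for diet in sham hearts, but 2 with DESeq2 and 0 to 4 with a library left out. For diet in TAC hearts it was 3, and 0 to 4 with a library left out. For the difference of TAC responses it was 1, but 0 with the replicate block and 0 to 2 with a library left out. Fewer libraries leave fewer degrees of freedom; otherwise the cause was not tested. Over all genes, DESeq2 called 1530 genes for diet in sham hearts and 809 for the difference, against 633 and 118 with limma. All 12 libraries in 1 fit gave 4436 for TAC on the control diet (2710 in the pairwise fit), 309 for TAC on the BCAA-free diet (1360) and 169 for diet in sham hearts (633). The replicate block gave 623 for TAC on the BCAA-free diet, 276 for diet in sham hearts and 50 for the difference. With 1 library left out the calls came to 546 to 1257 for TAC on the BCAA-free diet, 1354 to 4678 for TAC on the control diet, 1195 to 6025 for diet in TAC hearts, 50 to 1071 for diet in sham hearts and 16 to 1755 for the difference. Where control diet TAC hearts entered, the most calls came without control diet TAC 3 (for diet in sham hearts, without control diet sham 2). The counts of gene lists without control diet sham 2 or TAC 3 were added after seeing the data.

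Changes of direction were confined, among the settings run, to values that did not pass the main test. For TAC on the control diet, Zbtb16 (0.12) came to -0.22 with edgeR and -0.19 with DESeq2, and Errfi1 (0.04) to -0.021 with edgeR. With 1 library left out, Zbtb16 ran from -0.32 to 0.81 and Errfi1 from -0.25 to 0.29 in that comparison. For TAC on the BCAA-free diet, Sgk1 ran from -0.076 to 0.17 and Hsd11b1 from -0.0087 to 0.15. With diet, Errfi1 ran from -0.15 to 0.40 in sham hearts and Tsc22d3 from -0.063 to 0.060 in TAC hearts. For the difference, Zbtb16 ran from -1.02 to 0.11, Sgk1 from -0.18 to 0.056, Nr3c1 from -0.021 to 0.11 and Nr3c2 from -0.089 to 0.048.

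Of the 11 called member values, 3 stayed called whichever library was left out. Apart from the block and left-out libraries, 385 of 396 values kept direction and side of the threshold, 2 lost a call, 6 gained one and 3 changed direction. One of those losses was Nr3c2 with TAC on the control diet under joint size factors (adjusted p = 0.0512).

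Replicate numbers did not pair the samples: deviations of same-numbered libraries correlated at -0.28 to 0.18, with 2 of 18 pairs over 0.1, and 0 of 12 libraries correlated best with their own number. With the replicate block, 5 of 45 values lost their call (TAC on the control diet: Klf9, adjusted p = 0.0812, and Nr3c2, 0.111; TAC on the BCAA-free diet: Errfi1, 0.0578; diet in TAC hearts: Klf9, 0.0511; difference of responses: Fkbp5, 0.0932). Every member had at least 633 reads in every library.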

Other observations

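Of 19 genes of steroid metabolism and other steroid receptors, 11 were tested for TAC on the BCAA-free diet and 13 on the control diet, where 1 and 3 rose and 0 fell. Of all genes, 3.31% rose and 4.41% fell on the BCAA-free diet, and 9.17% and 5.64% on the control diet. Without control diet TAC 3, 4 of 12 rose and 1 fell with TAC on the control diet, where 2478 and 2200 of 18247 genes did. Star, which brings cholesterol into mitochondria for steroid synthesis, had 472, 423 and 568 normalized reads in BCAA-free TAC and 289, 247 and 282 in BCAA-free sham hearts. It had 1409, 1594 and 1129 in control diet TAC and 252, 291 and 291 in control diet sham hearts. The log2 change with TAC was 0.82 ± 0.133 on the BCAA-free diet (SE, limma adjusted p = 0.00339) and 2.28 ± 0.148 on the control diet (adjusted p = 9.93e-05), with a difference of -1.46 ± 0.202 (adjusted p = 0.00919). Srd5a1 and Srd5a3, of the steroid reductase family, rose with TAC on the control diet by 1.00 ± 0.195 and 0.55 ± 0.119. With the BCAA-free diet 1 of 13 was higher and 3 lower in TAC hearts, against 6.23% and 10.5% of all genes. The 1 higher is thus about the share over all genes. In sham hearts 1 of 11 was higher and 0 lower, against 1.27% and 2.27%. Star (-1.49 ± 0.156) and Srd5a3 (-0.60 ± 0.125) were among the lower ones in TAC hearts. Nr1h3, an oxysterol receptor, was higher with the BCAA-free diet by 0.46 ± 0.123 in TAC and 0.42 ± 0.0829 in sham hearts (adjusted p = 0.0309 and 0.0263).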
